A study of Mus musculus with 6 samples.

Results

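The 10 genes described here encode parts of the anaphase promoting complex, the ubiquitin ligase that starts chromosome separation. They are the structural subunits Anapc1, Anapc2, Anapc4, Anapc5, Anapc7, Anapc10, Cdc16, Cdc23 and Cdc27, and the activator Cdc20. They were taken by gene symbol from a table of 10896 genes measured by RNA sequencing in mouse oocytes, and all 10 were in it. The oocytes were at the germinal vesicle stage, in which the nucleus is still intact and meiosis has not resumed, and came from (C57BL x CBA) F1 females with no other genetic change named. In the in vitro group, 3 samples of 50 oocytes each had grown in follicles that were freed with collagenase from ovaries of 10 to 12 day old females. These follicles were cultured on membrane inserts with serum, follicle stimulating hormone, insulin, transferrin and selenium. In the in vivo group, 3 samples of 50 oocytes each came straight from the punctured ovaries of 7 to 11 week old females, in M2 medium with dbcAMP, a compound that holds oocytes before resumption. Growth in culture and the age of the donors went together in all 6 samples, so their effects cannot be told apart.

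The anaphase promoting complex tags proteins with ubiquitin so that the proteasome destroys them. Its large platform subunits hold together an arc of repeat proteins, to which activators bind, and a cullin and RING pair, at which ubiquitin is passed on. Cdc20 directs the complex to securin and cyclin B at the onset of anaphase, while the other activator, Fzr1, also called Cdh1, serves outside that window. In mouse oocytes Fzr1 is known for keeping cyclin B low during the arrest before resumption. Inhibitors such as Fbxo5 and Fbxo43 restrain the complex. In the deposited table, the annotation nuclear ubiquitin ligase complex was attached to all 10 members and to 25 genes in all.

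Of the 10 members, 1 was called different between the groups, which is no larger a share than among all genes. A gene was called where the authors' deposited table gave it a PPEE under 0.05, read here as the posterior probability of equal expression, which is not a p-value. By this rule 15.1% of all genes were called, 6.75% as higher and 8.31% as lower in vitro. Among the members, Anapc1 was lower in vitro and 0 were called higher. The authors' mean was lower in vitro for 6 members and higher for 4, against 48.9% lower and 51.1% higher among all genes. The median log2 change of the members, in vitro over in vivo, was -0.17, with a range from -0.65 to 0.57, and the median over all genes was 0.02. These means are averages over the samples of a group, and no SD belongs to them.

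**Figure D1:**
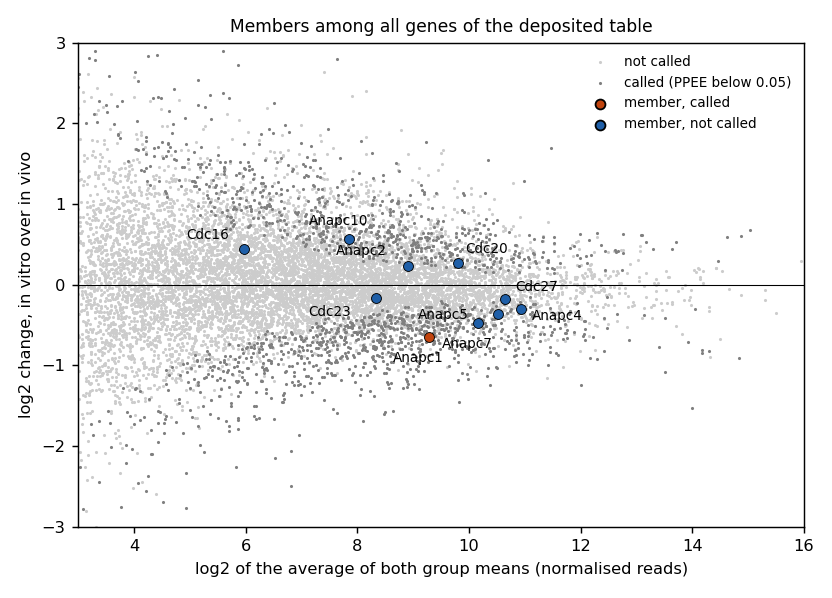
Change of each gene between the groups (log2 of the authors' in vitro mean over the in vivo mean, vertical axis) against its level (log2 of the average of both means, horizontal axis), for all genes of the table except 106 outside the plotted range. The 10 members are the large points, and all lie within the cloud of all genes. Anapc1, at -0.65, is the called member, and 25.4% of all genes had a larger change in either direction. The other 9 lie between -0.47 and 0.57.

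For 6 members the values of single libraries could be worked out, because the mean of a group adds up whole reads from 3 libraries, and 1 read of a library is worth a fixed amount. Means below 1000 were solved for whole reads, and the libraries of each group were given the letters A to C in order of size factor, and cannot be matched to the numbered replicates of the labels. Both groups had a single whole solution for Anapc2, Anapc10, Cdc16 and Cdc23. For Anapc1 in vivo, and for Cdc20 and Anapc7 in vitro, there was a second solution, in which libraries would differ more than 4-fold, and the balanced solution was used. The means of Anapc4, Anapc5 and Cdc27 were too high in both groups to be solved, as was the in vivo mean of Anapc7, and these means have no error. Over 8785 genes solved once in both groups, the libraries held between 1240183 and 1837207 recovered reads. Of means between 500 and 1000, 13.8% in vitro and 27.3% in vivo had several solutions. Separate cultures or animals are not named for the samples of either group, so the p-values below measure the spread between these samples, which may be technical.

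The libraries differed among themselves within the in vitro group. Each library was set against the others of its group by a log2 value per gene, over 1866 genes under 2000 bases and 1950 genes of at least 4000 bases. In vitro library B was relatively rich in short genes, with medians of 0.22 for short and -0.01 for long genes. In vitro library C ran the other way, with medians of -0.14 for short and 0.06 for long genes, and in vitro library A had medians of -0.15 and -0.08. Across 6395 genes the Spearman correlation of this value with length was 0.05 for library A, -0.20 for B and 0.28 for C in vitro, and between -0.05 and 0.09 for the in vivo libraries. Leaving out in vitro library A raised the calls over all genes in limma voom from 894 to 2344. Oocyte markers were high in both groups, with 10 of 10 in the table and summed authors' means of 112683 in vitro and 143628 in vivo. Their means were higher in vitro for 5 and lower for 5. Of these markers 1 was called, Bmp15, with authors' means of 14550 in vitro and 25668 in vivo and a PPEE of 1.52e-08 per the authors' deposited table. Of 10 granulosa and cumulus cell markers, 6 were in the table, with summed means of 329 in vitro and 212 in vivo, while Foxl2, Amh, Nr5a1 and Lhcgr were not listed. Means were higher in vitro for Inha, Fshr and Cyp19a1 and lower for Kitl, Gja1 and Cyp11a1, and the sum was carried by Cyp19a1, at 157 in vitro and 110 in vivo, and Inha, at 96.6 in vitro and 28.9 in vivo. Of the 6, Inha and Fshr were called by the PPEE of the authors' deposited table, both higher in vitro. In limma voom the adjusted p was 0.0110 for Inha and 0.0771 for Fshr. Of 6 theca and stroma markers 0 were in the table, and of 5 blood cell markers 1 was, Cd68, at 14.1 in vitro and 10.8 in vivo. The part of these differences in the members' values was not tested. In bulk samples, fewer cells of a type and less RNA per cell cannot be told apart.

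The promoters of Anapc1 and Cdc20 are shown because Anapc1 is the called member and Cdc20 is the activator. Both windows run from 250 bases before to 50 after the annotated start in RefSeq, build GRCm38.p6, which differs from the build mm9 that the submitters named. Anapc1 lies on the minus strand at chr2:128687346-128687645 and Cdc20 on the minus strand at chr4:118437294-118437593. Capitals mark matches, on either strand, to CCAAT, to TTTGAA or to CCGGAA, which are the CCAAT box, the cell cycle homology region that repressor complexes bind, and the core of ETS factor sites.
Anapc1: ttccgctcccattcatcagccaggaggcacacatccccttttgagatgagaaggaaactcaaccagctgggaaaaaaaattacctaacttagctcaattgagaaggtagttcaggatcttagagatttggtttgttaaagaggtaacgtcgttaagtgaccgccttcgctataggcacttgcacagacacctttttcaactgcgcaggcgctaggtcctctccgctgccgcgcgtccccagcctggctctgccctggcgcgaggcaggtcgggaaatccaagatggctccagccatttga
Cdc20: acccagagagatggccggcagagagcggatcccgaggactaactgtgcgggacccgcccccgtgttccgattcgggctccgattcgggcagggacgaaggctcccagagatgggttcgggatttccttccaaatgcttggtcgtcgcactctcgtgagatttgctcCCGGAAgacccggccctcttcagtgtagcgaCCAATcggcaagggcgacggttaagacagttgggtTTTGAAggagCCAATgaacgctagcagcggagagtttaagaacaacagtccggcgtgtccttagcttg
The Anapc1 window held none of these letters, and its GC content was 52.0%, beside a median of 52.7% over all promoters of the table. The Cdc20 window, with 58.7% GC, held CCAAT starting 53 and 8 bases before the start, TTTGAA 18 bases and CCGGAA 84 bases before it, and none of these matches overlapped. Promoters of 9 members were in the table. CCGGAA was found for 7 of these genes, against 14.9% of all 32851 promoter windows, CCAAT for 4 against 37.4%, and TTTGAA for Cdc20 and Anapc7 against 17.9%. These counts are of genes and the shares are of windows, and Anapc10 had another window without CCGGAA. GC content of the members' windows ran from 52.0% for Anapc1 to 70.3% for Anapc4, and its part in these counts was not tested. The matches are letters in a window and were not tested as sites.

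The platform subunits among the members, Anapc1, Anapc4 and Anapc5, all had lower authors' means in vitro, as did 48.9% of all genes. Anapc1 was the one that was called. Anapc1, the largest subunit and the scaffold that joins the platform to the catalytic arm, had an authors' mean of 487 normalised reads in vitro and 764 in vivo. That is 1.57-fold lower in vitro, with a PPEE of 0.00410 per the authors' deposited table. Its recovered reads, by the balanced solution in vivo, were 550, 436 and 407 in in vitro libraries A to C, against 1088, 912 and 536 in in vivo libraries A to C. Divided by the size factors these were 505, 452 and 505 normalised reads in vitro, against 880, 808 and 605 in vivo. The in vitro libraries lay close together, the in vivo libraries spread more widely, and the groups did not overlap. The mean was 487 ± 30.7 normalised reads over the in vitro libraries and 764 ± 142 over the in vivo libraries (SD, n = 3 each).

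Limma voom, fitted over 9030 genes with balanced solutions included, gave Anapc1 a log2 change of -0.65 ± 0.17 (SE) and a Benjamini-Hochberg adjusted p of 0.0334. With the balanced solution the direction of Anapc1 was the same without any single library, with log2 changes from -0.79 to -0.53. In limma voom its adjusted p was 0.0102 when in vitro library A was left out and 0.0214 when in vivo library C was. It was 0.0833 without in vitro library B, 0.110 without in vitro library C, 0.137 without in vivo library A and 0.136 without in vivo library B. The same omissions lowered the calls over all genes as well, from 925 of 9030 genes to 201, 40, 25 and 35. Leaving out in vitro library A raised the calls over all genes to 2459, and leaving out in vivo library C lowered them to 544. The other whole solution for Anapc1 in vivo, 237, 26 and 1840 reads, would give the same group mean with a far wider spread. In it, in vivo libraries A and B would hold 192 and 23.0 normalised reads, below every in vitro library. The call in limma voom and the direction without single libraries thus rest on the choice of the balanced solution. Anapc1 is the longest member, at 8967 bases, and over all genes of at least 4000 bases the median log2 change was -0.05, against 0.18 under 2000 bases; the part of length in its change was not tested.

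Anapc4 and Anapc5, the other platform subunits among the members, were among the most abundant members. Anapc4 had an authors' mean of 1746 normalised reads in vitro and 2145 in vivo, a log2 change of -0.30 with a PPEE of 0.327 per the authors' deposited table. Anapc5 had authors' means of 1277 in vitro and 1643 in vivo, a log2 change of -0.36 with a PPEE of 0.905 per the authors' deposited table. Neither was called, and neither has values per library. A non-coding transcript, Gm10482, matched 344 bases of Anapc5 at 95.3% identity, so a part of its reads could have come from there. Anapc15, a small subunit of the platform that is needed to release the checkpoint inhibitor, had 330, 382 and 321 normalised reads in in vitro libraries, against 336, 313 and 297 in in vivo libraries. The authors' mean of Anapc15 was higher in vitro, at 345 against 315 in vivo. Its groups overlapped, with an adjusted p of 0.627 in limma voom.

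The repeat proteins of the arc, Cdc27, Cdc23, Cdc16 and Anapc7, held 0 calls. Cdc27, the subunit that receives the tails of the activators, had an authors' mean of 1499 normalised reads in vitro and 1689 in vivo, a log2 change of -0.17, with a PPEE of 0.897 per the authors' deposited table. Anapc7, an outer subunit of the arc, had 960 normalised reads in vitro and 1331 in vivo, a log2 change of -0.47. This was the second largest decrease among the members, and its PPEE in the authors' deposited table was 0.622. The balanced solution for Anapc7 in vitro was 1238, 807 and 835 normalised reads in libraries A, B and C, so in this solution each in vitro library lay below the in vivo mean, and library A stood above the other two. The other whole solution, with 254, 2230 and 397 normalised reads, would put in vitro library B above the in vivo mean.

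Cdc23, a subunit next to the platform, had 335, 245 and 336 normalised reads in in vitro libraries A to C, against 378, 329 and 320 in in vivo libraries. The groups overlapped, since libraries A and C in vitro lay inside the in vivo range. Limma voom gave a log2 change of -0.18 ± 0.18 (SE) and an adjusted p of 0.513 for Cdc23. In the GENCODE annotation, exons of Cdc23 share 1271 bases with exons of Kif20a on the opposite strand, and the labels do not say that counting used strand, so reads of these genes may not be separable.

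Cdc16, a repeat protein that carries Cdc26, was the least abundant member. Its recovered reads were 63, 86 and 56 in in vitro libraries and 64, 57 and 51 in in vivo libraries. As normalised reads these were 57.9, 89.1 and 69.5 in vitro against 51.7, 50.5 and 57.6 in vivo. In vitro library A and in vivo library C nearly touched, and the means were 72.2 ± 15.8 over the in vitro libraries and 53.3 ± 3.80 over the in vivo libraries (SD, n = 3 each). The adjusted p was 0.298 in limma voom. Cdc26, the small protein that stabilises Cdc16, had 49.6, 104 and 63.3 normalised reads in vitro and 53.4, 61.1 and 45.2 in vivo, with an adjusted p of 0.449 in limma voom. In both genes in vitro library B was the highest of all 6 libraries. Anapc16, another small subunit of the arc, had 348, 445 and 314 normalised reads in vitro against 439, 438 and 353 in vivo, and its groups overlapped.

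**Figure D2:**
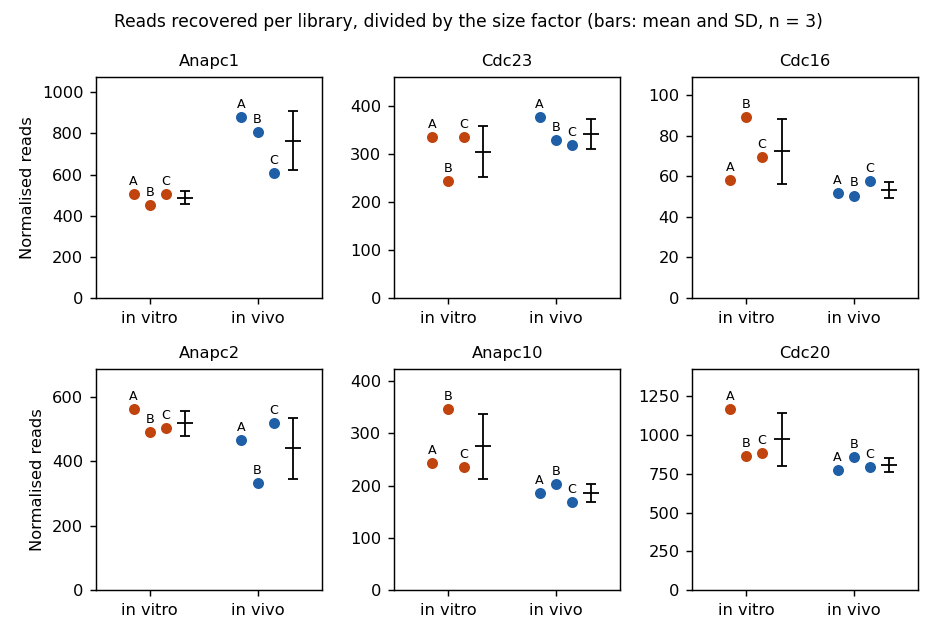
Normalised reads (recovered reads divided by the size factor of the library, vertical axis from 0) of 6 members in in vitro libraries (left in each panel) and in vivo libraries (right), with mean and SD, n = 3. By the balanced solution in vivo, Anapc1 lies at 452 to 505 in vitro and 605 to 880 in vivo without overlap, while Cdc23 and Anapc2 overlap between the groups.

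The catalytic and substrate binding members, Anapc2 and Anapc10, both had higher authors' means in vitro without being called. Anapc10, which forms the receptor for destruction signals together with the activator, had 264, 335 and 190 recovered reads in in vitro libraries, against 230, 230 and 149 in in vivo libraries. As normalised reads these were 243, 347 and 236 in vitro, against 186, 204 and 168 in vivo, so every in vitro library lay above every in vivo library. In limma voom the log2 change of Anapc10 was 0.54 ± 0.20 (SE) with an adjusted p of 0.0886. The PPEE of Anapc10 in the authors' deposited table was 0.181. Of the 3390 genes whose change was at least as large as that of Anapc10, 33.4% were called in the authors' deposited table. The value leaned on in vitro library B, without which the log2 change was 0.36. Without in vitro library A it was 0.63 with an adjusted p of 0.0297 in limma voom, in a fit with balanced solutions. That fit called 2459 of 9030 genes. A processed pseudogene, Gm15530, matched 550 bases of Anapc10 at 97.5% identity, so its reads cannot be fully assigned.

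Anapc2, the cullin of the catalytic core, had 563, 490 and 504 normalised reads in in vitro libraries against 466, 334 and 521 in in vivo libraries. In vivo library C lay inside the in vitro range, and limma voom gave an adjusted p of 0.316. Anapc11, the RING protein that pairs with Anapc2, was measured by few reads, at 12, 15 and 19 in vitro and 11, 9 and 5 in vivo. Its normalised reads were 11.0, 15.5 and 23.6 in vitro against 8.89, 7.97 and 5.65 in vivo, with an adjusted p of 0.195 in limma voom. Of the 5 listed subunits outside the 10 members, 4 were in the table (Anapc11, Anapc15, Anapc16 and Cdc26) and 0 were called. Anapc13 is not analysed here.

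The activators differed in size of change, and Fzr1 was called while Cdc20 was not. Cdc20 had 1273, 833 and 711 recovered reads in in vitro libraries, against 956, 972 and 702 in in vivo libraries. These were 1170, 863 and 882 normalised reads in vitro and 773, 861 and 793 in vivo. Library A stood high in vitro, and the lowest in vitro value was just above the highest in vivo value. In the other whole solution, with 186, 2286 and 444 normalised reads in vitro, the groups would overlap. Limma voom gave Cdc20 a log2 change of 0.26 ± 0.15 (SE) with an adjusted p of 0.256. Its PPEE was 0.838 in the authors' deposited table. Exons of Cdc20 share 53 bases with Elovl1 on the opposite strand.

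Fzr1 had 236, 385 and 231 recovered reads in in vitro libraries, against 198, 111 and 138 in in vivo libraries. As normalised reads these were 217, 399 and 287 in vitro against 160, 98.3 and 156 in vivo, and the groups did not overlap. Fzr1 was 2.18-fold higher in vitro by the authors' means, with a PPEE of 0.0302 per the authors' deposited table. Limma voom gave it a log2 change of 1.11 ± 0.26 (SE) with an adjusted p of 0.0252. That adjusted p was 0.0691 without in vitro library B, 0.0913 without in vitro library C, 0.0924 without in vivo library A and 0.120 without in vivo library B. It was 0.000815 in limma voom when in vitro library A was left out and 0.0426 when in vivo library C was. The first of these fits called 2344 of 8785 genes. Per kb of gene length, Cdc20 was 4.07 times as abundant as Fzr1 in vitro and 7.38 times in vivo by the authors' means. In single libraries this ratio was 6.79, 2.72 and 3.88 in vitro against 6.08, 11.0 and 6.41 in vivo, so it overlapped between the groups through in vitro library A.

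In recovered reads, 0 of 4 or 1 of 6 solved members were called, depending on the solutions used. These sets are too small to set apart from the share over all genes. Of the 4 members solved once in both groups, limma voom called 0 at an adjusted p below 0.05, and 1 had an unadjusted p below 0.05. The share called among all genes in that fit was 10.2%, and limma without weights also called 0 of these members. With balanced solutions included, 1 of 6 members was called, Anapc1, again beside 10.2% of all genes. Every in vitro library lay below every in vivo library for 1 of 6 members, against 16.5% of all genes. Every in vitro library lay above every in vivo library for Anapc10, Cdc16 and Cdc20, 3 of 6 members, against 18.4% of all genes. The members left out of these counts, Anapc4, Anapc5, Anapc7 and Cdc27, all had lower authors' means in vitro. The counts thus do not describe the direction of the whole set, and those of Anapc1 and Cdc20 rest on balanced solutions. For Cdc16 and Cdc20 the gap between the groups was small beside the spread within them.

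The members differed far more from each other than between the groups. Per kb of gene length, Anapc4 was the most abundant, with 654 normalised reads in vitro against 804 in vivo, and Cdc16 the least, with 32.0 in vitro and 23.6 in vivo. The ratio of these levels per kb was 20.4 in vitro and 34.0 in vivo. In both groups Anapc4, Anapc5, Cdc20, Anapc7 and Cdc27 held the upper places, with levels per kb from 259 to 654 in vitro and from 292 to 804 in vivo. Anapc2 stood at 172 per kb in vitro and 146 in vivo. Anapc10, Cdc23, Anapc1 and Cdc16 followed in vitro at 98.2, 73.9, 54.4 and 32.0 per kb. In vivo the order at the low end was Anapc1, Cdc23, Anapc10 and Cdc16, at 85.2, 82.7, 66.4 and 23.6 per kb. The median gene of the table stood at 47.6 per kb in vitro and 45.7 in vivo, so Cdc16 was the one member below it. The order of the members was alike in both groups, with a Spearman correlation of 0.92 over the 10 genes, which share the libraries and the length estimates. Since levels per kb carry no error here, neighbours in this order cannot be told apart by a test.

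**Figure D3:**
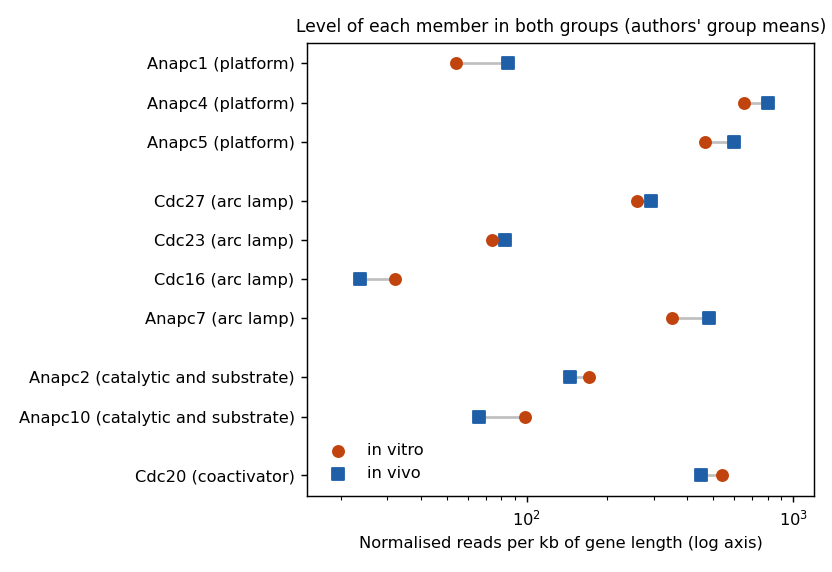
Level of each member in normalised reads per kb of gene length (authors' group means, logarithmic horizontal axis), circles for in vitro and squares for in vivo, ordered by role in the complex. Anapc4 is highest at 654 in vitro and 804 in vivo, Cdc16 is lowest at 32.0 in vitro and 23.6 in vivo, and the circle of Anapc1 lies left of its square.

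Partners and targets of the complex were called in both directions. Of 45 listed genes outside the members, 43 were in the table, and of these the authors' deposited table called 5 higher and 6 lower in vitro, beside 6.75% higher and 8.31% lower among all genes. Their median log2 change was 0.06, against 0.02 over all genes. Ubiquitin conjugating enzymes held 0 calls among 4 measured genes. Ube2c, which places the first ubiquitins, had 499, 724 and 525 normalised reads in vitro against 589, 690 and 669 in vivo, with overlapping groups. Ube2s, which extends the chains, had 34.9, 96.4 and 44.7 normalised reads in vitro against 36.4, 17.7 and 19.2 in vivo, and an adjusted p of 0.102 in limma voom. Ube2d2a, an enzyme that can stand in for Ube2c, had 329, 857 and 694 normalised reads in vitro against 237, 178 and 251 in vivo. Its PPEE was 0.163 in the authors' deposited table, while limma voom on recovered reads gave an adjusted p of 0.0225. A processed pseudogene, Gm9762, matched 444 bases of Ube2d2a at 100% identity. Ube2d3 was the most abundant of these enzymes, with authors' means of 18409 in vitro and 17542 in vivo.

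Among inhibitors and the checkpoint proteins that bind Cdc20, 1 of 7 was called higher and 1 lower in vitro, beside 15.1% of all genes called in either direction. Bub1b, a checkpoint protein that blocks the complex, had authors' means of 13172 normalised reads in vitro and 23626 in vivo, with a PPEE of 5.15e-08 per the authors' deposited table. Mad2l1, its partner in the checkpoint complex, had 1905 normalised reads in vitro and 1533 in vivo, with a PPEE of 0.0288 per the authors' deposited table. Bub3 had authors' means of 1644 in vitro and 1480 in vivo and was not called. The inhibitors Fbxo5 and Fbxo43, also called Emi1 and Emi2, were not called. Fbxo5 had authors' means of 3038 in vitro and 2941 in vivo, and Fbxo43 had 1597 in vitro and 1857 in vivo, and the authors' deposited table gave PPEE of 0.962 for the first and 0.865 for the second. Mad2l1bp, which helps to take the checkpoint complex apart, had 173, 171 and 148 normalised reads in vitro against 125, 106 and 139 in vivo, with an adjusted p of 0.165 in limma voom. Trip13, the motor of that disassembly, had 87.3, 69.5 and 76.9 normalised reads in vitro and 67.1, 96.5 and 64.4 in vivo.

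Of 4 kinases and phosphatases that act on the complex or its inhibitors, 1 was called, beside the same 15.1% of all genes. Camk2g, the kinase that marks Fbxo43 for destruction when the egg is activated, had authors' means of 1179 in vitro and 772 in vivo, 1.53-fold higher in vitro, with a PPEE of 0.00519 per the authors' deposited table. Plk1 had authors' means of 2918 in vitro and 5156 in vivo but a PPEE of 0.465, and Cdc14b had 3460 in vitro and 2015 in vivo with a PPEE of 0.695 per the authors' deposited table. Cdk1 had 506, 592 and 515 normalised reads in vitro against 575, 647 and 530 in vivo.

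Of 23 substrates and separase, the authors' deposited table called 2 higher and 5 lower in vitro, beside 6.75% higher and 8.31% lower among all genes. The main targets at anaphase were not called: cyclin B, Ccnb1, had authors' means of 14634 in vitro and 16724 in vivo, and securin, Pttg1, had 4668 in vitro and 3202 in vivo. Separase, Espl1, the protease that securin holds back, was 1.63-fold lower in vitro with a PPEE of 0.00549 per the authors' deposited table. Cenpf, Prc1, Bub1 and Anln, proteins of the kinetochore, the midzone, the checkpoint and the cleavage furrow, fell by 0.94, 0.53, 0.51 and 0.33 on the log2 scale in vitro, all called by their PPEE in the authors' deposited table. Kif22, a chromosome kinesin, and Sgol1, a protein of centromeric cohesion, rose by 0.33 and 0.25 on the log2 scale, called in the same way. Sgol1 was not called in limma voom on recovered reads, with an adjusted p of 0.222. Of these called genes, Espl1, Cenpf, Bub1 and Anln are longer than 4000 bases, and Prc1, Kif22 and Sgol1 are shorter. The part of gene length in their changes was not tested. Recovered reads put 3 of 19 solved partner genes past an adjusted p of 0.05 in limma voom, all higher in vitro, namely Fzr1, Ube2d2a and Cdc25a, beside 10.2% of all genes, and 5 had an unadjusted p below 0.05. All in vitro libraries lay above all in vivo libraries for 6 of the 19 genes, against 18.4% of all genes, and below them for 0, against 16.5%. Only means below 1000 were solved, and each of the 6 partners called lower by PPEE had a higher mean in at least 1 group. None of those lower calls was therefore among the 19 genes, so the directions here do not describe all partners. Cdc25a, a phosphatase that activates Cdk1, had 462, 967 and 625 normalised reads in vitro against 306, 346 and 413 in vivo, with an adjusted p of 0.0384 in limma voom and a PPEE of 0.496 per the authors' deposited table. Without in vitro library B the log2 change in limma voom was 0.60 for Cdc25a (adjusted p = 0.0875) and 1.08 for Ube2d2a (adjusted p = 0.0605). The omission of in vitro library C, in vivo library A or in vivo library B also ended both calls, with adjusted p from 0.0922 to 0.145 in limma voom, and that of in vivo library C ended the call of Cdc25a (adjusted p = 0.0530).

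**Figure D4:**
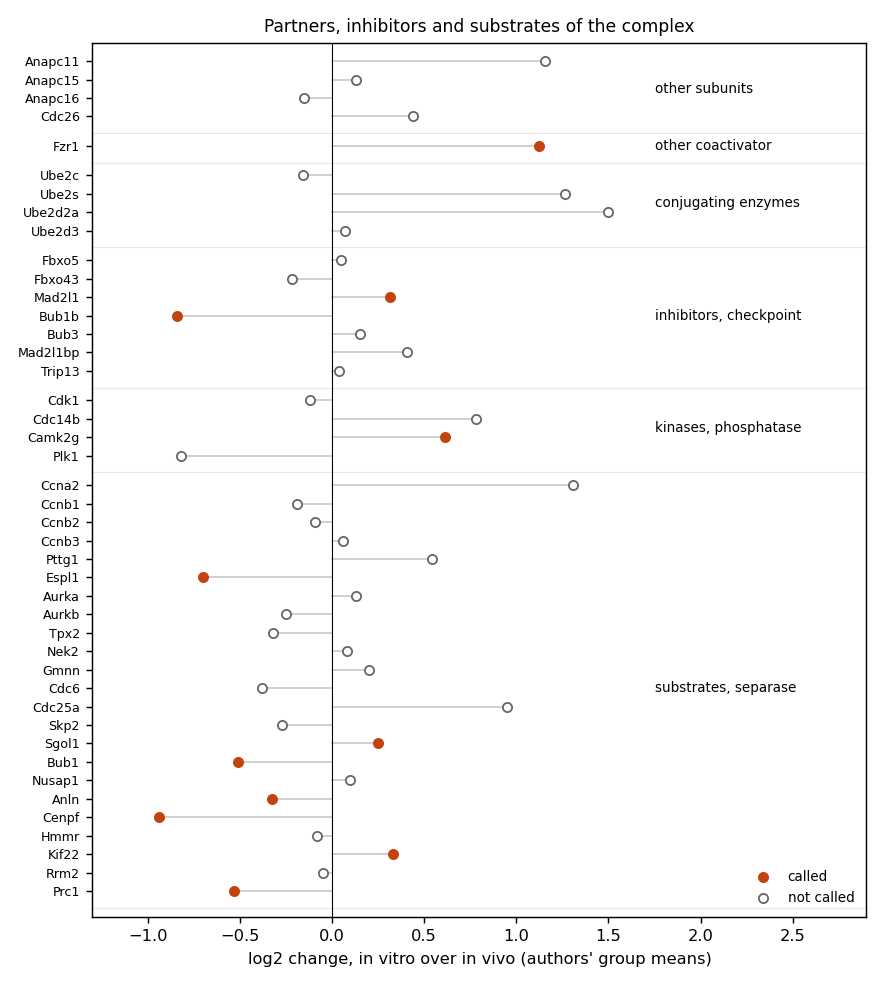
Change of the 43 measured partners, inhibitors and substrates (log2 of the authors' in vitro mean over the in vivo mean, horizontal axis), by role, with filled points for genes called at a PPEE below 0.05. The called genes lie on both sides of 0, from Cenpf at -0.94 to Fzr1 at 1.12.

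**Figure D5:**
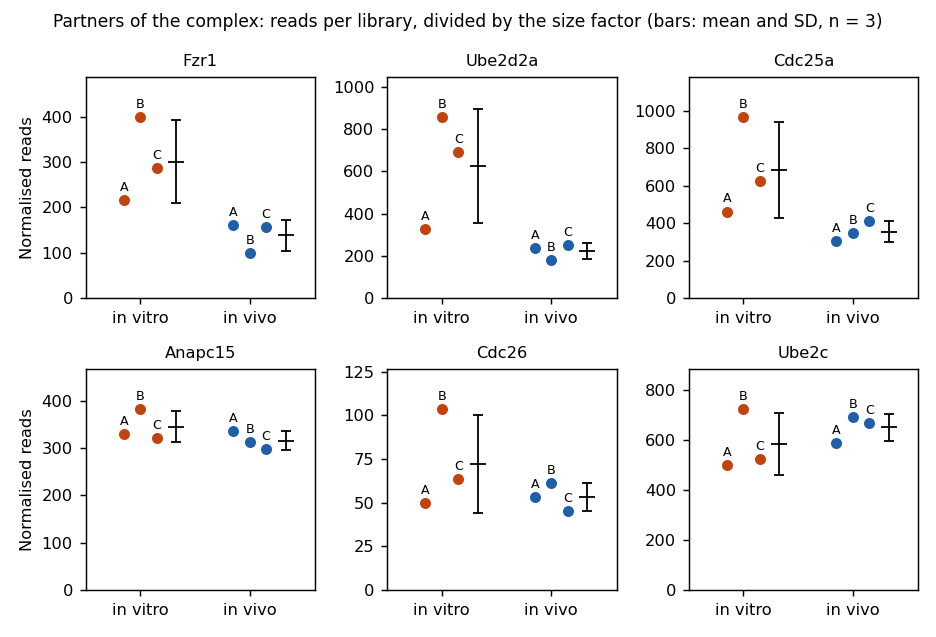
Normalised reads per library (vertical axis from 0) of 6 partners of the complex, in vitro at left and in vivo at right in each panel, with mean and SD, n = 3. In vitro library B is the highest library in all 6 panels, for Fzr1 at 399, Ube2d2a at 857, Cdc25a at 967, Cdc26 at 104, Anapc15 at 382 and Ube2c at 724. These panels are a choice among 19 solved partners. Library B was not the highest for others, such as Cdk1, Trip13, Mad2l1bp, Sgol1 and Anapc11.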

How the data were processed

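RNA of 3 in vitro and 3 in vivo samples was made into cDNA with a low input kit from 10 ng of total RNA, per the labels. The submitters' processing notes name BWA, with no version, and build mm9; counting and normalisation are not given in the sources used here. Per the file headers, the deposited signal is the mean of normalised reads of each group for every gene. The authors also gave a gene length, a PPEE and a log2 ratio with in vivo on top. Here all changes are in vitro over in vivo. The authors' log2 ratio is given back when 0.599 is added to both deposited means. As no column holds values per sample, calls use the deposited PPEE, a score between 0 and 1 made by the authors, below 0.05.

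Steps of 1 read were found from differences between low means, and means below 1000 were solved for whole reads to the 10 digits of the table. In vitro, a single solution was found for 95.1% of means below 200, 96.6% from 200 to 500 and 84.1% from 500 to 1000. In vivo these shares were 95.4%, 96.8% and 71.9%. Values moved off by a random amount, which should have no solution, still had one in 0.667%, 16.0% and 38.0% of cases in vitro and in 1.67%, 23.0% and 50.7% in vivo, so solutions of higher means are less certain. Size factors were 1.09, 0.965 and 0.806 for libraries A to C in vitro and 1.24, 1.13 and 0.885 for those in vivo. Limma voom 3.58.1 (R 4.3.3) was fitted without filter or block, 2-sided, with Benjamini-Hochberg adjustment over all genes. The recovery and the fit were tested on simulated data; the steps were not found in every simulated group, and higher means were solved less surely. The labels name no molecular identifiers. Copies were sought with minimap2 2.31-r1302 among GENCODE M21 transcripts (at least 200 bases, 95% identity).

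All 10 members are named, and of the partners every called gene and the listed subunits, activator and inhibitors; Ube2d2a, Cdc25a, Ube2c, Ube2s, Ube2d3, Plk1, Cdc14b, Cdk1, Ccnb1 and Pttg1 were added after their values were seen. No gene was named for a pattern like that of the members. The members and lists were chosen with earlier results of these data known. Alternatives were other PPEE and fold limits, a minimum mean, centring, a pseudocount, other library sizes, limma without weights and leaving out each library.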

Additional observations from a re-analysis of the deposited data

How the results depend on the processing

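The counts of members called in the authors' deposited table, 0 higher and 1 lower in vitro, were the same under all 5 alternatives, and the members' median log2 change lay between -0.18 and -0.17. The minimum mean and centring could not have changed these counts. Every member's means lay above the minimum, and the shift by centring was far smaller than the change of Anapc1. No member's log2 change turned its sign with a pseudocount or centring, nor did those of the 6 members with recovered reads. This could hardly have come out otherwise, since these shifts are small and recovered reads average to the deposited means. It is therefore no test of the directions. Among partner genes the 5 higher calls became 3 at a PPEE below 0.01 and 2 with at least a 1.5-fold change, and the 6 lower calls became 3 with at least a 1.5-fold change. In recovered reads, 0 members were called in limma voom and 1 with balanced solutions, an alternative chosen after seeing the data. Among the 4 members with single solutions, leaving out each library in turn gave between 0 and 1 called, the call being Anapc10 without in vitro library A. With balanced solutions, Anapc1 and Anapc10 were called without in vitro library A, Anapc1 without in vivo library C, and 0 of 6 members without any of the other libraries. Over all 8785 genes, calls were 894, against 24 without in vivo library A, 33 without in vivo library B, 40 without in vitro library C, 212 without in vitro library B, 522 without in vivo library C and 2344 without in vitro library A. The cause was not tested. No paired analysis was possible because the deposited columns are group means and the recovered libraries carry no replicate number. Group means without recovered reads, those of Anapc4, Anapc5 and Cdc27 and the in vivo mean of Anapc7, have no error, which limits what can be said of them.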

Other observations

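Changes ran with gene length over the whole table: the 3136 genes of at least 4000 bases and the 3230 genes under 2000 bases had the medians given above, and the Spearman correlation of change and length over 10895 genes was -0.16. Over the 10 members it was -0.37, and -0.13 over 9 members without Anapc1, the longest at 8967 bases. The points share libraries and length estimates.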
